A study of Rattus norvegicus with 18 samples.

Results

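miR-221 and miR-222 are a pair of microRNAs (miRNAs) that lie next to each other on the X chromosome. They were followed as 2 members, rno-miR-221 and rno-miR-222, of 205 miRNAs and candidate miRNAs with a sequence in the rat cortex data, 104 of which were known miRNAs. These 104 are a partial list, limited to names whose sequence could be taken from the sources used here, and let-7 members and other abundant miRNAs are not among them. A unique sequenced tag was counted for a member when it was identical to the mature sequence over their common length, had its 5′ end at most 3 nt from the mature one and ran no more than 3 nt beyond the mature 3′ end. The rule for tags uses the sequences and not the levels. Over all libraries, 138 unique tags with 457082 reads belonged to rno-miR-221 and 157 unique tags with 435022 reads to rno-miR-222. No tag was shared by the members (0 tags) and no member tag fitted another known, candidate or RefSeq miRNA (0 tags).

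Small RNA was sequenced from Sprague Dawley rats at 8 stages, embryonic day (E) 10, E13 and E17 and postnatal day (P) 0, 3, 7, 14 and 28. P0 had 2 biological replicates and each other stage 1 tissue sample, and each of the 9 tissue samples was sequenced in 2 runs, which gave 18 libraries. The tissue is labelled forebrain for the samples of E10 and E13 and somatosensory cortex for all later ones, so an effect of stage between these tissues cannot be told apart from one of the tissue taken. The sources used here do not say how many animals went into a tissue sample. The libraries held 4899010 to 16590379 clean reads, and a level is given in TPM, the reads of its tags scaled to 1e6 clean reads of the library. The neuronal miRNA rno-miR-124 was abundant in every tissue sample, with 16225 TPM at E13 as its lowest level. The tissue is a mixture of cells, and fewer cells of a type and less RNA per cell cannot be told apart.

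A miRNA is cut from a hairpin in a longer transcript by Drosha and then by Dicer, and 1 strand of the resulting duplex is loaded into an Argonaute protein. Target recognition rests mainly on the seed, bases 2 to 8 from the 5′ end, so that miRNAs with the same seed can bind many of the same messenger RNAs. miR-221 and miR-222 share their seed and are best known for repressing the cell cycle inhibitor p27 (Cdkn1b) and the receptor tyrosine kinase Kit, with much of the work done in gliomas and blood vessels. Because the end of a miRNA sets which bases form the seed, and because members of a cluster can come from 1 primary transcript, both the level of each member and its exact ends are described.

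In the RefSeq annotation of the GRCr8 build, both hairpins lie on the plus strand. The hairpin of Mir222 is at chrX:6022621-6022723 (103 nt) and that of Mir221 at chrX:6023182-6023290 (109 nt), with 458 nt between them. Both are covered by the annotated long non-coding RNA genes LOC120099382 and LOC120099384. The mature sequences, 5′ to 3′ with the seed in capitals, are shown because the members share their first 8 bases and then diverge. In all, 11 of 21 positions are identical when the sequences are aligned from the 5′ end, and no other mature rat miRNA among the 693 RefSeq entries has this seed.
rno-miR-221-3p (chrX:6023246-6023268, 23 nt): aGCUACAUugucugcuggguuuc
rno-miR-222-3p (chrX:6022682-6022702, 21 nt): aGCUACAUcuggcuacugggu

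The hairpins from RefSeq are shown with both mature arms in capitals, since the bases that follow the 3p arm decide how an extended tag is read.
Mir221 hairpin: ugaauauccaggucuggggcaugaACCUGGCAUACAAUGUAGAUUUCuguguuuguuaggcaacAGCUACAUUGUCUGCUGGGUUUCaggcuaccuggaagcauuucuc
Mir222 hairpin: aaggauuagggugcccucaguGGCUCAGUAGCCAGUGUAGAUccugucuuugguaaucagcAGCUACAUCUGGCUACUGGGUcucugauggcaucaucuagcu

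Both members were present at each stage, and both were most abundant at P28. The level of rno-miR-221 in run 1 and run 2 was 1333 and 689 TPM at E10, 238 and 620 TPM at E13, and 256 and 625 TPM at E17. In the first P0 sample it was 289 and 2145 TPM and in the second 2034 and 782 TPM. It was 3118 and 1715 TPM at P3, 1053 and 3560 TPM at P7, 1116 and 5425 TPM at P14, and 3151 and 6368 TPM at P28. E13 and E17 were thus the lowest samples, E10 was above both in each run, and the runs of a sample differed by 1.82 to 7.43 times.

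The level of rno-miR-222 was 418 and 108 TPM at E10, 386 and 430 TPM at E13, and 512 and 406 TPM at E17. It was 367 and 2706 TPM in the first P0 sample, and 731 and 1163 TPM in the second. It was 1345 and 1673 TPM at P3, 1753 and 3533 TPM at P7, 2131 and 3640 TPM at P14, and 5926 and 6963 TPM at P28. With the runs averaged this member was lowest at E10, while in run 1 the levels at E13 and in the first P0 sample were below that at E10. Outside E10 and the first P0 sample its runs lay closer together, at 1.11 to 2.02 times.

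**Figure D1:**
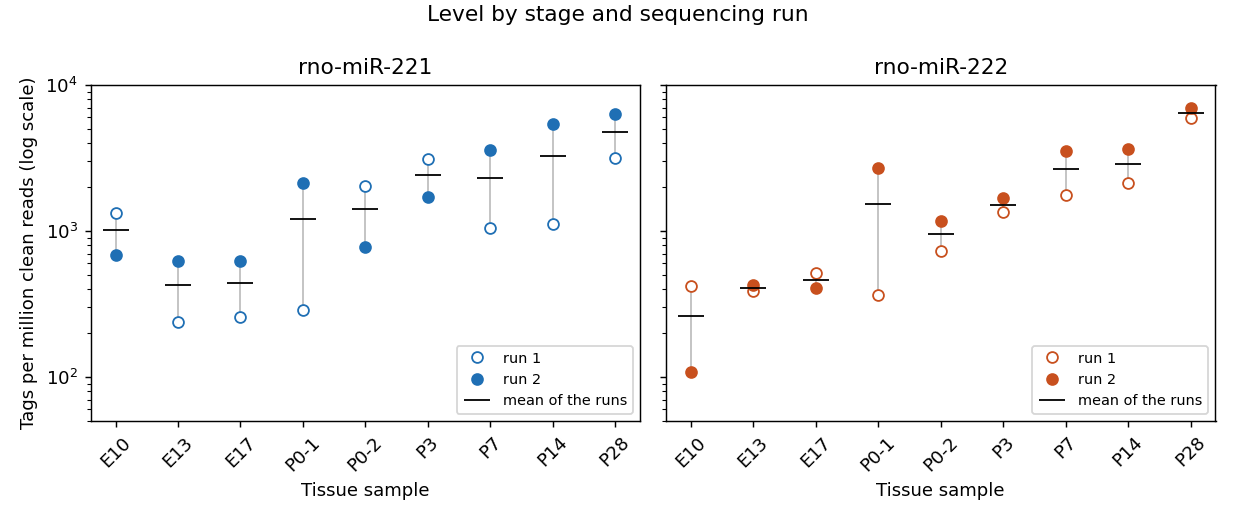
Level of each member in TPM (log axis) in the 9 tissue samples, with 1 point for each sequencing run and a bar for the mean of the runs; P0-1 and P0-2 are the biological replicates of P0. Both members were highest at P28, and the runs of the first P0 sample lay 7.43-fold apart for rno-miR-221 and 7.38-fold apart for rno-miR-222.

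With the runs averaged, rno-miR-221 measured 4759 TPM at P28 against 1011 TPM at E10, a 4.71-fold difference (2.36-fold from the first run and 9.24-fold from the second). For rno-miR-222 the averages were 6445 and 263 TPM, a 24.5-fold difference (14.2-fold and 64.5-fold). The larger fold of each member used run 2 of E10, a library whose end forms stood apart, as described below. Against E13 in place of E10, P28 was 11.1-fold higher for rno-miR-221 and 15.8-fold higher for rno-miR-222. The P0 replicates give the only biological spread: 1312 ± 135 TPM for rno-miR-221 and 1242 ± 417 TPM for rno-miR-222 (SD, n = 2 tissue samples, runs averaged). In the order of levels of rno-miR-221 (E13, E17, E10, the P0 samples, P7, P3, P14, P28), E17 and E10 were the 1 pair of neighbours whose runs did not overlap. In the order of rno-miR-222 (E10, E13, E17, the second P0 sample, P3, the first P0 sample, P7, P14, P28), the runs did not overlap between E17 and the second P0 sample, between that sample and P3, and between P14 and P28. In all other neighbours the runs overlapped. The runs give technical spread alone, and for rno-miR-222 the P0 replicates lay on either side of P3, so these orders are descriptions. Among 691 RefSeq mature sequences of both arms, a comparison chosen after seeing the data, the averaged level placed rno-miR-221 at 75 for E10, 82 for E13 and 25 for P28, and rno-miR-222 at 125 for E10 and 22 for P28.

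Both members rose over development when a slope on the order of the stages was fitted with the counts of the runs summed. The study had picked both as rising from these same libraries, so the slopes and their p-values are no independent evidence of a rise. The slope of rno-miR-221 was 0.58 ± 0.13 log2 units per stage (SE, adjusted p = 0.00295) and that of rno-miR-222 0.80 ± 0.12 (SE, adjusted p = 0.000333; edgeR quasi-likelihood test, Benjamini-Hochberg adjustment over 191 features). Both members passed in the rising direction, against 19.9% of all features tested (38 of 191) and 24.5% of the known miRNAs in the fit (25 of 102). In all, 96 features (50.3%) passed, 38 rising and 58 falling, and without the TMM scaling of libraries the split was 21 rising and 76 falling. Relative to the median slope of all features, −0.07 with TMM and −0.20 without it, rno-miR-221 rose by 0.65 and rno-miR-222 by 0.87 log2 units per stage under both scalings. Fitted on run 1, rno-miR-221 had a slope of 0.36 that did not pass (adjusted p = 0.248), while that of rno-miR-222 was 0.67 (adjusted p = 0.00354). Fitted on run 2, the slopes were 0.68 (adjusted p = 0.000731) and 0.82 (adjusted p = 0.00636).

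The ratio of the members is free of library size, since both are counted in the same library. With the runs summed, the reads of rno-miR-222 divided by those of rno-miR-221 were 0.245 at E10, 0.858 at E13, 0.936 at E17, 1.26 and 0.747 in the P0 samples, 0.647 at P3, 1.08 at P7, 0.745 at P14 and 1.27 at P28. E10 was the 1 stage at which rno-miR-221 exceeded rno-miR-222 by more than 2-fold in both runs, with ratios of 0.313 and 0.157. At the other stages the runs spread widely. In run 1 and run 2 the ratio was 1.63 and 0.693 at E13, 1.997 and 0.649 at E17, 1.66 and 0.992 at P7, and 1.91 and 0.671 at P14. At P28 it was above 1 in both, 1.88 and 1.09, and the first P0 sample was the most even, 1.27 and 1.26. It was 0.359 and 1.49 in the second P0 sample and 0.431 and 0.975 at P3, the opposite order. The runs of 5 of the 9 samples lay on opposite sides of 1, and rno-miR-222 was the more abundant member in 9 of the 18 libraries.

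The gap between the runs of a sample had a median of 1.18 on the log2 scale, and the log2 ratio had an SD of 0.72 over the 9 samples. Its correlation with the order of stages did not pass (Pearson r = 0.58, exact permutation p = 0.0940, adjusted p = 0.219 over 7 relations; Spearman rho = 0.40, exact permutation p = 0.283, adjusted p = 0.572; n = 9). Without E10 and P28, the samples farthest from the median stage, r was −0.17. Within runs r was 0.44 (adjusted p = 0.405) and 0.57 (adjusted p = 0.147) by exact permutation. The larger slope of rno-miR-222 was therefore not a difference from rno-miR-221 that this test separates from the spread between samples.

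**Figure D2:**
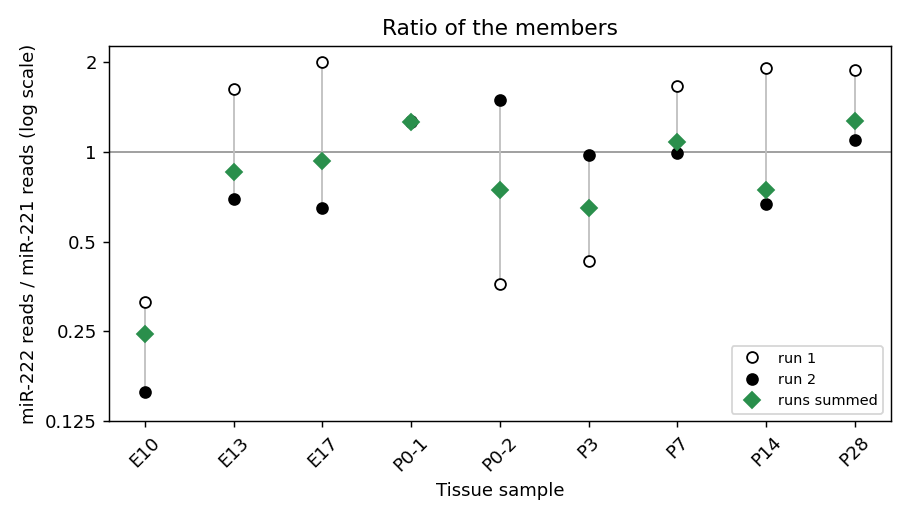
Reads of rno-miR-222 divided by reads of rno-miR-221 (log axis) in the 9 tissue samples, for each run and for the runs summed; the line marks equal reads. E10 lay lowest in both runs, at 0.313 and 0.157, while the runs of 5 samples fell on opposite sides of the line.

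A spread of this size between neighbouring miRNAs was compared with 4 other pairs of neighbours. The SD of the log2 ratio over the 9 samples was 0.78 for rno-miR-17-5p and rno-miR-92a of the miR-17 to miR-92 cluster, 0.62 for rno-miR-25 and rno-miR-93, 0.57 for rno-miR-181c and rno-miR-181d, and 1.41 for rno-miR-296 and rno-miR-298. The value of 0.72 for the miR-221 and miR-222 pair lay inside this range, but it rested on E10. Without E10, a comparison chosen after seeing the data, it was 0.37, and those of the other pairs were 0.82, 0.58, 0.47 and 1.51 in the order above. The median gap between runs in these pairs was 1.91 to 2.82, larger than the 1.18 of the miR-221 and miR-222 pair. These are descriptions of 5 pairs, with no test between them. None of the 8 miRNAs of the other pairs rose: 5 fell past the threshold, with slopes of −0.66 for rno-miR-17-5p, −0.62 for rno-miR-92a, −0.71 for rno-miR-25, −0.69 for rno-miR-93 and −0.45 for rno-miR-181d. Of all 191 features tested, 58 fell and 38 rose past the threshold.

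The profile of each member over the 9 samples was also set beside those of 94 features with a mean of at least 50 TPM. By Pearson correlation of log2(TPM + 1), a description over samples that share their libraries, the features nearest to rno-miR-221 were rno-miR-1224 (r = 0.94), rno-miR-138 (r = 0.93) and rno-miR-132 (r = 0.89), with rno-miR-222 at place 4 (r = 0.88). Those nearest to rno-miR-222 were rno-miR-344b-5p (r = 0.98), rno-miR-132 (r = 0.96) and rno-miR-195 (r = 0.95), with rno-miR-221 at place 7. rno-miR-132 is induced by neuronal activity through CREB, and its level was 3.33 TPM at E10 and 799 TPM at P28. Within run 1, rno-miR-222 was the feature nearest to rno-miR-221 (r = 0.69), and within run 2 it was at place 5 (r = 0.89). Among the features nearest to rno-miR-222, rno-miR-221 was at place 9 within run 1 and place 3 within run 2.

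The members differed in where their reads ended. Most reads of rno-miR-221 stopped at the mature 3′ end (46.6%) or 1 nt before it (45.3%), and reads of rno-miR-222 mostly ran 1 or 2 nt past it. The forms that held at least 5% of the reads of a member in any tissue sample are listed here, named by length, because they show this difference letter by letter.
rno-miR-221, 23 nt, the mature form: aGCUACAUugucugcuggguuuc
rno-miR-221, 22 nt: aGCUACAUugucugcuggguuu
rno-miR-221, 24 nt: aGCUACAUugucugcuggguuuca
rno-miR-222, 18 nt: aGCUACAUcuggcuacug
rno-miR-222, 19 nt: aGCUACAUcuggcuacugg
rno-miR-222, 20 nt: aGCUACAUcuggcuacuggg
rno-miR-222, 21 nt, the mature form: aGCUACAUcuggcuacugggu
rno-miR-222, 22 nt: aGCUACAUcuggcuacuggguc
rno-miR-222, 23 nt: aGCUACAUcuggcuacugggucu
rno-miR-222, 24 nt: aGCUACAUcuggcuacugggucuc

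Of the reads of rno-miR-221 in all libraries, 44.7% were the 23 nt mature form and 41.2% the 22 nt form. The most abundant tag of rno-miR-221 followed the run: it was the 22 nt form in 8 of the 9 libraries of run 1 and the 23 nt form in 8 of the 9 of run 2. The 21 nt mature form of rno-miR-222 held 4.54% of its reads, with a range of 2.79% to 5.67% over the tissue samples. The 22 nt form held 47.5% and the 23 nt form 22.0%, and the 22 nt form was the most abundant tag of rno-miR-222 in 16 libraries. A shorter group at 18, 19 and 20 nt held 10.6%, 6.03% and 5.67% of the rno-miR-222 reads. Tags under 18 nt are not analysed here, so forms of rno-miR-222 more than 3 nt short of the mature end could hardly be seen.

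**Figure D3:**
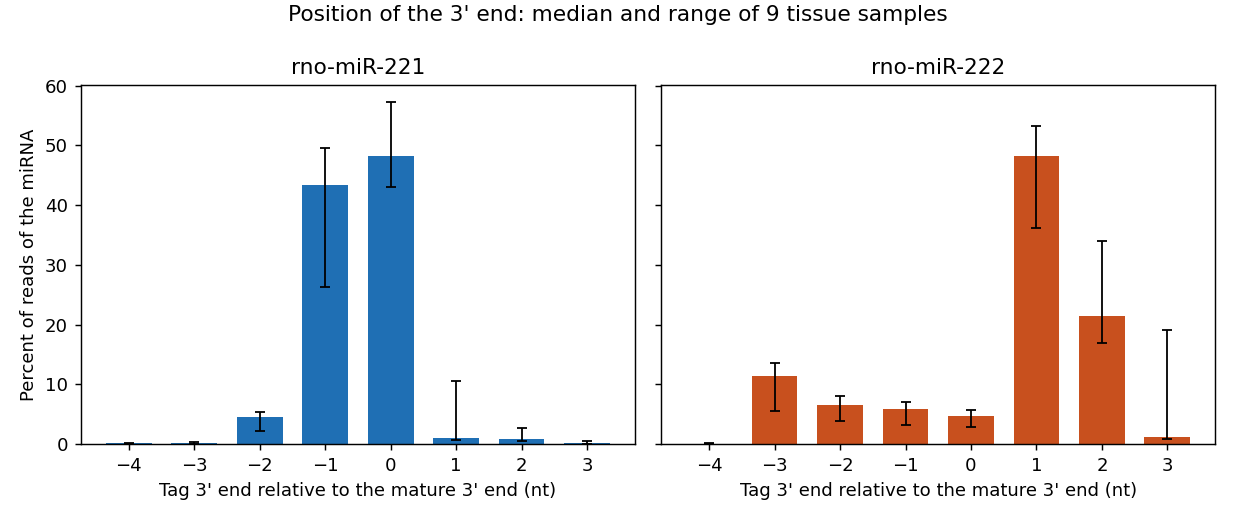
Position of the 3′ end of the reads of each member relative to the mature 3′ end (nt, negative values are shorter); bars give the median percent of reads over the 9 tissue samples and lines the lowest and highest sample. Reads of rno-miR-221 ended mainly at positions −1 and 0, those of rno-miR-222 mainly at 1 and 2, with a lower group from −3 to 0.

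Over the 9 tissue samples, 3.70 ± 3.95% of rno-miR-221 reads and 73.7 ± 5.5% of rno-miR-222 reads ended past the mature 3′ end (mean ± SD, n = 9), a difference of 70.0 percentage points. Reads short of that end were 47.1 ± 8.1% for rno-miR-221 and 21.8 ± 5.0% for rno-miR-222, a difference of −25.3 points. Each difference had the same sign in 9 of 9 samples (two-sided exact sign-flip permutation test, p = 0.00391, the smallest this design allows, adjusted p = 0.00391 over 3 measures). The mature end is a property of the annotation. When both ends were counted from the most abundant tag over all libraries, which lies 1 nt past the mature end in rno-miR-222, the difference in reads past the end was 22.8 points in the same direction. That tag is the mature form in rno-miR-221, but its 22 nt form led in 8 libraries of run 1. Counted from the 22 nt form, the 46.6% of rno-miR-221 reads at the mature end would lie past the reference. Of the rno-miR-222 reads, 22.8% and 1.61% ended 2 and 3 nt past the mature end. The direction of this difference therefore depends on the reference chosen.

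The letters past the 3′ end also differed between the members. Of the rno-miR-222 reads that passed the end, 98.2% carried the letters of the hairpin, with c in 66.0% and cu in 30.7%. For rno-miR-221, 44.3% of the reads past the end continued with the a of the hairpin or further hairpin letters, and the most frequent letters not in the hairpin were u (15.4%), au (14.1%) and aa (9.43%). Adenine or uridine added to the 3′ end by terminal transferases is a known modification of miRNAs. As a share of all reads of a member, tags with letters not in the hairpin made up 1.46% for rno-miR-221 and 1.34% for rno-miR-222. The shares cover unlike forms and are not compared. On the 22 nt form of rno-miR-221, an added letter other than c broke the match and was not counted. Letters added to the 22 nt and 23 nt forms of rno-miR-222 were counted. In run 2 of E10 these shares were 11.8% and 8.40%, against 2.95% and 0.933% in run 1 of E10.

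At the 5′ end, 93.1% of rno-miR-221 reads and 98.6% of rno-miR-222 reads began at the mature base. A start that was shifted in either direction was found in 6.87 ± 1.66% of rno-miR-221 reads and 1.57 ± 0.57% of rno-miR-222 reads (mean ± SD, n = 9), a difference of −5.30 percentage points with the same sign in 9 of 9 samples (exact sign-flip permutation test, p = 0.00391, adjusted p = 0.00391). Nearly all shifted starts of rno-miR-221 were 1 nt later, in 6.80% of its reads, and the same shift held 1.22% for rno-miR-222. With the mature start both members have the seed GCUACAU. With the start 1 nt later the seeds are no longer the same, CUACAUU in rno-miR-221 and CUACAUC in rno-miR-222. Among 42 other known miRNAs with at least 500 reads in each library, the share of shifted starts over all libraries ran from 0.103% to 87.2%, and 9 of them exceeded that of rno-miR-221.

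The shares of end forms differed between the runs. The start of rno-miR-221 was shifted in 8.50% to 20.6% of reads in run 1 and in 2.02% to 7.04% in run 2. Reads of rno-miR-222 short of the mature 3′ end were 18.6% to 56.7% in run 1 and 0.282% to 20.9% in run 2. The lowest value came from run 2 of E10, in which 97.5% of rno-miR-222 reads passed the mature end and the 24 nt form was its most abundant tag. That library stood apart for the other miRNAs as well: the median share of reads short of the mature 3′ end over the 42 other known miRNAs was 3.25% there and 57.6% to 92.7% in the other 17 libraries. The difference between the members kept its sign in every sample within each run, for all 3 measures.

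Of the 6 relations of end shares with the order of stages, 2 passed the threshold, both for the 3′ end of rno-miR-221. Its reads short of the mature 3′ end made up 28.8% at E10, 41.7% at E13, 45.5% at E17, 49.4% and 50.6% in the P0 samples, 49.5% at P3, 47.5% at P7, 55.5% at P14 and 55.3% at P28. Its reads past that end made up 14.0%, 4.43%, 2.84%, 2.60%, 2.33%, 2.21%, 1.82%, 1.51% and 1.62% in the same order of samples. At E10 these shares were 39.5% and 4.73% in run 1 and 14.9% and 26.0% in run 2. The first share rose with the order of stages (r = 0.86, exact permutation p = 0.000838, adjusted p = 0.00293; rho = 0.85, exact permutation p = 0.00520, adjusted p = 0.0182; n = 9). The second fell (r = −0.71, exact permutation p = 0.000628, adjusted p = 0.00293; rho = −0.98, exact permutation p = 6.61e-05, adjusted p = 0.000463; n = 9). Without E10 and P28 the correlations were 0.82 and −0.91. Within run 1 the rise did not pass (r = 0.74, adjusted p = 0.0696) and the fall did (r = −0.83, adjusted p = 0.0276), and within run 2 both passed (r = 0.81, adjusted p = 0.0133, and r = −0.65, adjusted p = 0.0128; exact permutation). In the 7 cortex samples alone, chosen after seeing the data, the rise did not pass (r = 0.80, adjusted p = 0.119) and the fall did (r = −0.96, adjusted p = 0.0139; exact permutation). Without P14 neither passed, and without P7 the fall did not (adjusted p = 0.0601, 0.179 and 0.0707 by exact permutation).

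The short 3′ ends of other miRNAs moved in the same direction over these samples. The share of reads short of the mature 3′ end correlated positively with the order of stages in 42 of the 42 other known miRNAs, with a median r of 0.57, and their median share with the runs summed was 21.3% at E10, 69.9% at E13 and 70.0% at P28. The value at E10 came from unlike runs, 63.6% in run 1 and 3.25% in run 2. For the share past the end, r was negative in 37 of 42, with a median of −0.52, and the median share with the runs summed was 23.3% at E10 (8.74% in run 1 and 24.5% in run 2), 7.12% at E13, 7.66% and 12.2% in the P0 samples, 15.4% at P3 and 8.59% at P28. After E10 this median did not fall steadily, while the share of rno-miR-221 went from 4.43% at E13 to 1.62% at P28. A larger r than that of rno-miR-221 was found in 1 of the 42 for the short share, and a more negative r in 6 for the share past the end. The part of these library-wide differences in the trend of rno-miR-221 was not tested.

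For rno-miR-222 the share short of the mature end had r = 0.24 (adjusted p = 0.620) and the share past it r = −0.25 (adjusted p = 0.620; exact permutation, n = 9). The range over samples was 14.8% at P3 to 28.9% at E17 for short reads and 65.4% at E17 to 80.9% at E10 for reads past the end. Its 24 nt form held 58.2% of reads in run 2 of E10, 0.954% in run 1 of E10 and 0.982% over all libraries. The shift of the 5′ end had r = 0.07 for rno-miR-221 (adjusted p = 0.868) and r = −0.48 for rno-miR-222 (adjusted p = 0.353; exact permutation).

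**Figure D4:**
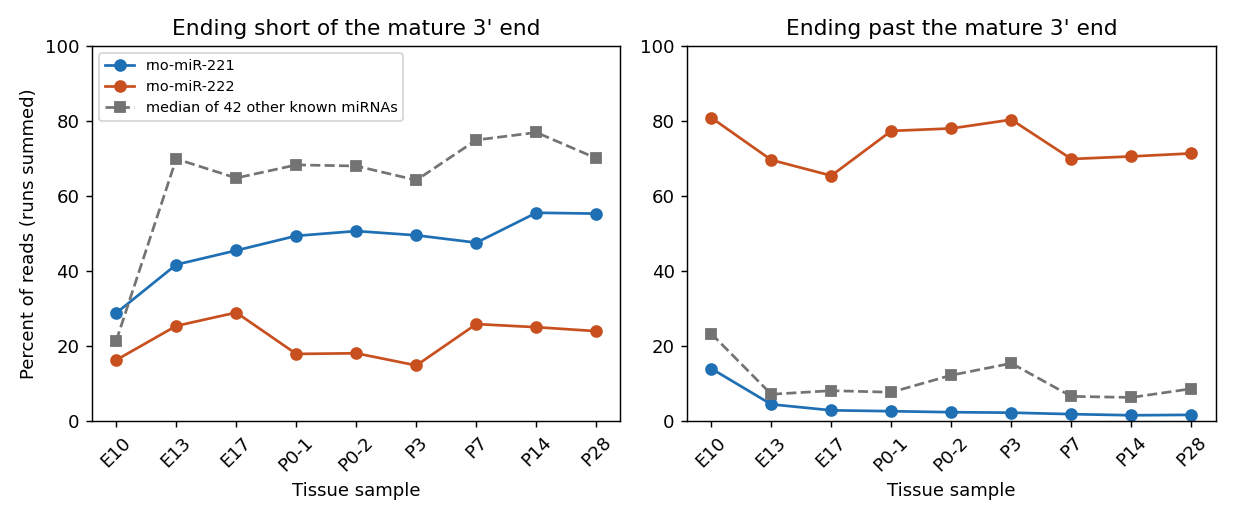
Percent of reads ending short of (left) and past (right) the mature 3′ end in the 9 tissue samples, runs summed, for each member and for the median of 42 other known miRNAs. The short share of rno-miR-221 went from 28.8% at E10 to 55.3% at P28, and the median of the other miRNAs from 21.3% to 70.0%; at E10 that median was 63.6% in run 1 and 3.25% in run 2.

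The opposite arms of the hairpins were compared next, since Argonaute usually keeps 1 strand of the duplex. Their RefSeq sequences are shown with bases 2 to 8 in capitals.
rno-miR-221-5p (chrX:6023206-6023228): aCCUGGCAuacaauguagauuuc
rno-miR-222-5p (chrX:6022642-6022662): gGCUCAGUagccaguguagau
Tags of rno-miR-221-5p held 37517 reads and those of rno-miR-222-5p 348 reads. The 5p arm made up 7.59% of the reads of both arms of Mir221 and 0.0799% for Mir222. The shares moved with the run. That of rno-miR-221-5p was 3.11% (E10) to 22.2% (E17) in run 1, with a median of 19.0%, and 1.10% (first P0 sample) to 7.47% (P3) in run 2, with a median of 5.37%. That of rno-miR-222-5p was 0.0214% to 0.510% in run 1 and 0.0364% to 0.393% in run 2. The ranges of the hairpins did not overlap in either run, and no order of stages is read from shares over both runs. The averaged level of rno-miR-221-5p was 29.5 TPM at E10, 24.6 TPM at E13, 52.9 TPM at E17, 45.8 and 109 TPM in the P0 samples, 229 TPM at P3, 233 TPM at P7, 288 TPM at P14 and 639 TPM at P28, so with the runs averaged its lowest and highest stages were those of rno-miR-221, although in run 2 it was lowest at E10 (16.3 TPM, against 21.1 TPM at E13). The averaged level of rno-miR-222-5p was 0.575 TPM at E10, lowest at E17 (0.163 TPM, 4 reads) and highest at P28 (3.81 TPM, 94 reads). Both arms of each hairpin had reads in all 18 libraries.

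Tags with a single changed base inside the mature sequence were counted from the mature 5′ end, position 1 being the first base, leaving out the last 3 bases. The split at P7 follows the study, which reported a higher share of edited reads after P7 in these same libraries. The p-values below are therefore not independent of that result, and other miRNAs were not set beside the members here. With the runs summed, such tags made up 4.78 ± 1.01% of rno-miR-221 reads in the samples from P7 on (n = 3) and 4.73 ± 1.69% in the earlier samples (n = 6), a difference of 0.06 percentage points (two-sided exact permutation p = 0.952, adjusted p = 0.952). For rno-miR-222 the shares were 3.71 ± 0.45% (n = 3) and 2.45 ± 0.52% (n = 6), a difference of 1.26 points (exact permutation p = 0.0238, adjusted p = 0.0476). Leaving out 1 sample at a time gave differences of 1.08 to 1.51 points. The call was lost without any 1 sample but E17, though without a sample from P7 on the adjusted p could not fall below 0.0714 beside the large p of rno-miR-221. The share depended on the run: that of rno-miR-221 was 5.52% to 13.1% in run 1 and 2.08% to 4.81% in run 2, and the runs contributed unequal numbers of reads. Within runs the late samples were higher for both members, by 2.98 points in run 1 (adjusted p = 0.0476) and 1.33 points in run 2 (adjusted p = 0.0357) for rno-miR-221, and by 2.09 (adjusted p = 0.0476) and 1.46 points (adjusted p = 0.0357) for rno-miR-222 (exact permutation, 3 against 6 samples).

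A single change, U20G, held 29.0% of the changed reads of rno-miR-221. It made up 2.31% to 6.48% of reads in the libraries of run 1 and 0.112% to 1.35% in those of run 2, so it moved with the run. The next were U11G with 6.93% and A7C with 4.19% of the changed reads. In rno-miR-222 no change held more than 7.14%, the share of G18U, and C16U (6.55%) and C6U (5.45%) followed. Changes made during reverse transcription or sequencing and changes in the RNA cannot be told apart in these tags. U20G and G18U lie at the last position counted, where a letter added to a shortened form would look the same.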

How the data were processed

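The authors sequenced gel-selected small RNA of rat cortex on a Solexa instrument, and low quality reads, adaptors and contaminants were removed. The authors deposited, per library, the sequence and length of each unique clean tag and its count of reads, with no normalization, mapping or annotation; tag lengths were 18 to 39 nt. Mature sequences of 30 known miRNAs were assembled from the primers of the study, those of 74 further names came from RefSeq, and 101 were the candidates; 13 names without a fitting sequence were not used here. The members and lists were chosen with earlier results of these data known.

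Tags were counted by identity and scaled to total clean reads as TPM. Slopes were fitted with edgeR 4.0.16 in R 4.3.3 (limma 3.58.1) on counts summed over the runs, with TMM factors, for features that reached 10 counts in 2 or more tissue samples, at an adjusted p threshold of 0.05. DESeq2 1.42.0 was an alternative. Tests on shares and ratios were exact permutations over tissue samples in Python 3.11.15 (numpy 2.4.6, pandas 2.3.3, scipy 1.17.1, matplotlib 3.10.9). Runs are technical replicates, and stages other than P0 have 1 tissue sample, so p-values of slopes and correlations measure spread around a trend. Those of the end differences between the members measure how constant a difference was over samples of different stages. Those of the single base changes measure a gap between groups of mixed stages. Wilson intervals (95%) hold the counting error and nothing else, because amplified reads are not separate molecules. Named were both members, the 3 most similar profiles, 4 cluster pairs, tags with at least 5% of reads in a sample, and the opposite arms; single base changes were named after their values were seen. On simulated data the counting step recovered 1000 of 1000 tags.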

Additional observations from a re-analysis of the deposited data

Results flagged for a closer look

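A tag of rno-miR-222 that ended 4 nt past the mature 3′ end fell outside the counting rule and is in no value of the report. The 1 alternative that counts it, for the ratio of the members, gave r = 0.57 with stage order. It has 25 nt and all its letters are those of the hairpin.
rno-miR-222, 25 nt: aGCUACAUcuggcuacugggucucu
It held 914 reads over the 18 libraries, above the 3 reads that a count of 0 allows. Of these, 278 came from run 2 of E10, where the tag made up 13.6% of its own reads and those of rno-miR-222 together (95% Wilson interval 12.1% to 15.1%). In run 1 of E10 it had 2 reads, 0.0434% (0.0119% to 0.158%). In the other 16 libraries and run 1 of E10 its share was at most 0.304%, with a median over all 18 of 0.129%. The level of rno-miR-222 in run 2 of E10 is therefore given without this form, and whether the tag is a feature of that library or of the stage was not tested.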

How the results depend on the processing

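With 1 tissue sample at each stage but P0, biological spread at a stage is unknown. No slope or correlation changed sign past the threshold under the alternatives run. The slope of rno-miR-221 passed in 21 of 22 alternatives and was 0.36 in run 1 alone; that of rno-miR-222 passed in all 22. Without each sample in turn the slopes were 0.54 to 0.66 and 0.67 to 0.88, and 73 to 97 features passed. With the sequencing run as a replicate block on the 18 libraries, the slopes were 0.43 (adjusted p = 0.00970) and 0.66 (adjusted p = 5.12e-05, edgeR) and no call on the members changed, but this fit counts the runs of 1 tissue sample as separate samples, so its p-values are too small; the pairing by run was checked by the correlation of the run differences between samples, which was 0.0119 to 0.970 (median 0.365) and above 0.1 in 35 of 36 pairs. Run 1 alone called 58 features of 171, against 93 of 181 for run 2 alone, and the cause was not tested; RefSeq features, with more tested, gave 212 of 477. For the short 3′ ends of rno-miR-221, r was 0.74 in run 1 alone, 0.80 with the cortex samples alone (adjusted p = 0.119 by exact permutation, chosen after seeing the data), and 0.84 to 0.89 without each sample in turn; for its ends past the mature end r was −0.88 to −0.70. The differences between the members in all 3 end measures kept their direction and call in 16 of 16 alternatives each, but their size moved: the 5′ shift difference was −12.7 points in run 1 alone and −3.69 in run 2 alone, the short 3′ end difference −40.2 points with tags of at least 20 nt, and the difference past the end 22.8 points when counted from the most abundant tag. No alternative counted rno-miR-221 from its 22 nt form, from which the difference past the end would change direction. The mismatch difference of rno-miR-221 was 2.98 points in run 1 and 1.33 in run 2, and that of rno-miR-222 ranged from 1.08 to 1.51 points without each sample. The ratio of the members did not pass in any of 19 alternatives, with r from 0.19 to 0.66. Taking the first P0 sample from run 2 alone, also chosen after seeing the data, changed no call on slopes or ratio.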
